A study of Mus musculus with 12 samples.

Results

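Transcripts of 9 genes that encode transcription factors of helper T cell lineages and effector states were followed across regulatory and conventional CD4+ T cells of mice: Tbx21, Eomes, Gata3, Rora, Bcl6, Prdm1, Maf, Ahr and Bhlhe40. The members are the rows of the deposited count table that carry these symbols. All 9 were found among 24062 genes, and all 9 were among the 13509 genes with enough counts to be tested. The 12 messenger RNA libraries fall into 6 groups of 2, so n = 2 for each level below: Treg of the tumour, Tconv of the tumour, Treg of the spleen of tumour-bearing (TB) mice, Tconv of that spleen, Treg of normal spleen and Tconv of normal spleen. Every mouse was C57BL/6. TB mice had received 500000 TC-1 cells by tail vein 3 weeks before tissue was taken, and normal mice are given with no treatment. TC-1 is a transplantable line made from mouse lung epithelial cells. CD4+ cells were enriched by negative selection in every group and sorted into GFP+ cells, called Treg, and GFP- cells, called Tconv; the labels do not say which allele carries GFP. Tumour libraries carry LG in their descriptions, and spleen libraries SP. Mice without tumour gave spleen only, so tumour and host organ cannot be told apart in any comparison with spleen. Whether the libraries of a group are from different mice is not stated, so p-values measure the spread between these libraries.

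Naive CD4+ T cells take up effector programmes under the control of a small set of transcription factors. T-bet (Tbx21) drives the Th1 programme and interferon gamma, with Eomes as its T-box relative; GATA3 drives the Th2 programme, and the ROR receptors, of which RORα is the product of Rora, drive the Th17 programme and innate type 2 cells. BCL6 is the regulator of follicular helper (Tfh) cells, and BLIMP-1, the product of Prdm1, is its antagonist in effector cells. c-MAF, the ligand-activated aryl hydrocarbon receptor (Ahr) and BHLHE40 tune cytokine output, IL-10 above all. Treg use the same factors beside Foxp3, and effector Treg of tissues are known for high Prdm1, Maf, Gata3 and Rora.

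Total counts per library ran from 18624132 to 24111546. Foxp3, which defines Treg, had 989 to 1246 CPM (counts scaled to a common library size) in the 6 Treg libraries and 11.5 to 19.6 CPM in the 6 Tconv libraries. Levels are CPM scaled by library total and TMM factor, each given for library 1 and then library 2 of a group. Changes are log2 fold changes ± SE from 1 edgeR quasi-likelihood fit of the 12 libraries, with p-values adjusted by Benjamini-Hochberg over all 13509 genes; a gene is called at an adjusted p under 0.05. Markers of macrophages, fibroblasts and epithelium were higher in the tumour libraries. The sums of NK cell, B cell and endothelial markers were lower in each cell type. The endothelial sum was 106 to 128 CPM in tumour Treg, against 198 to 202 CPM in TB spleen Treg. In Tconv it was 255 to 258 CPM in the tumour, against 273 to 310 CPM in TB spleen. Of the 4 endothelial markers tested, 2 rose and 1 fell in Treg, and 3 rose and 1 fell in Tconv. The sum of 10 macrophage and monocyte markers was 287 to 394 CPM in tumour Treg and 187 to 462 CPM in tumour Tconv, against 13.9 to 21.8 CPM in TB spleen Treg and 7.72 to 9.12 CPM in TB spleen Tconv. In Treg all 10 of these markers rose, and in Tconv 9 of 10 rose. For 6 fibroblast markers the sums were 396 to 416 CPM in tumour Treg and 212 to 519 CPM in tumour Tconv, against 1.55 to 1.86 CPM in TB spleen Treg and 0.269 to 0.573 CPM in TB spleen Tconv. All 5 fibroblast markers that could be tested rose in each cell type, while Dcn, Lum and Pdgfra were at 0 in both TB spleen groups. For 8 epithelial markers the sums were 109 to 163 CPM in tumour Treg and 81.1 to 92.6 CPM in tumour Tconv, against 26.5 to 26.9 CPM in TB spleen Treg and 4.17 to 4.27 CPM in TB spleen Tconv, with 7 of 8 higher in each cell type. Macrophages also express Maf, Bhlhe40 and Ahr, and the part of these cells in the tumour differences was not tested. In tumour Tconv the macrophage sum was 187 CPM in library 1 and 462 CPM in library 2. There 8 of the 9 members were higher in library 1, all but Prdm1. The sum of 5 T cell markers was also higher in library 1, at 4036 CPM against 3768 CPM. In tumour Treg the macrophage sum was 287 CPM in library 1 and 394 CPM in library 2. The T cell sum there was 3369 and 3486 CPM. Only Ahr, of the 9 members, was higher in tumour Treg library 1. The share of all tested genes with the same library order is not given, and the cause of these orders was not tested. In bulk RNA, fewer cells of a type and less RNA per cell cannot be told apart.

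The 9 factors covered a wide range of levels. Per kilobase of annotated exon, Bhlhe40 was the most abundant member in tumour Treg at 258 CPM per kb and in tumour Tconv at 92.7 CPM per kb. In the 4 spleen groups Gata3 stood first instead, at 51.0 CPM per kb in TB spleen Treg, 21.7 in TB spleen Tconv, 47.2 in normal spleen Treg and 22.5 in normal spleen Tconv. Bhlhe40 stood eighth in normal spleen Tconv, at 3.13 CPM per kb. The least abundant member was Eomes in the 3 Treg groups, with 0.555 CPM per kb in tumour Treg, and Ahr in the 3 Tconv groups. The ratio of the highest group mean to the lowest was 82.5 for Bhlhe40, 17.9 for Rora, 12.7 for Eomes and 10.1 for Prdm1. It was 9.07 for Ahr, 7.87 for Maf, 3.47 for Gata3, 2.91 for Tbx21 and 1.92 for Bcl6. Tumour Treg held the highest mean of 7 members and the lowest of the other two, Bcl6 and Eomes.

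**Figure D1:**
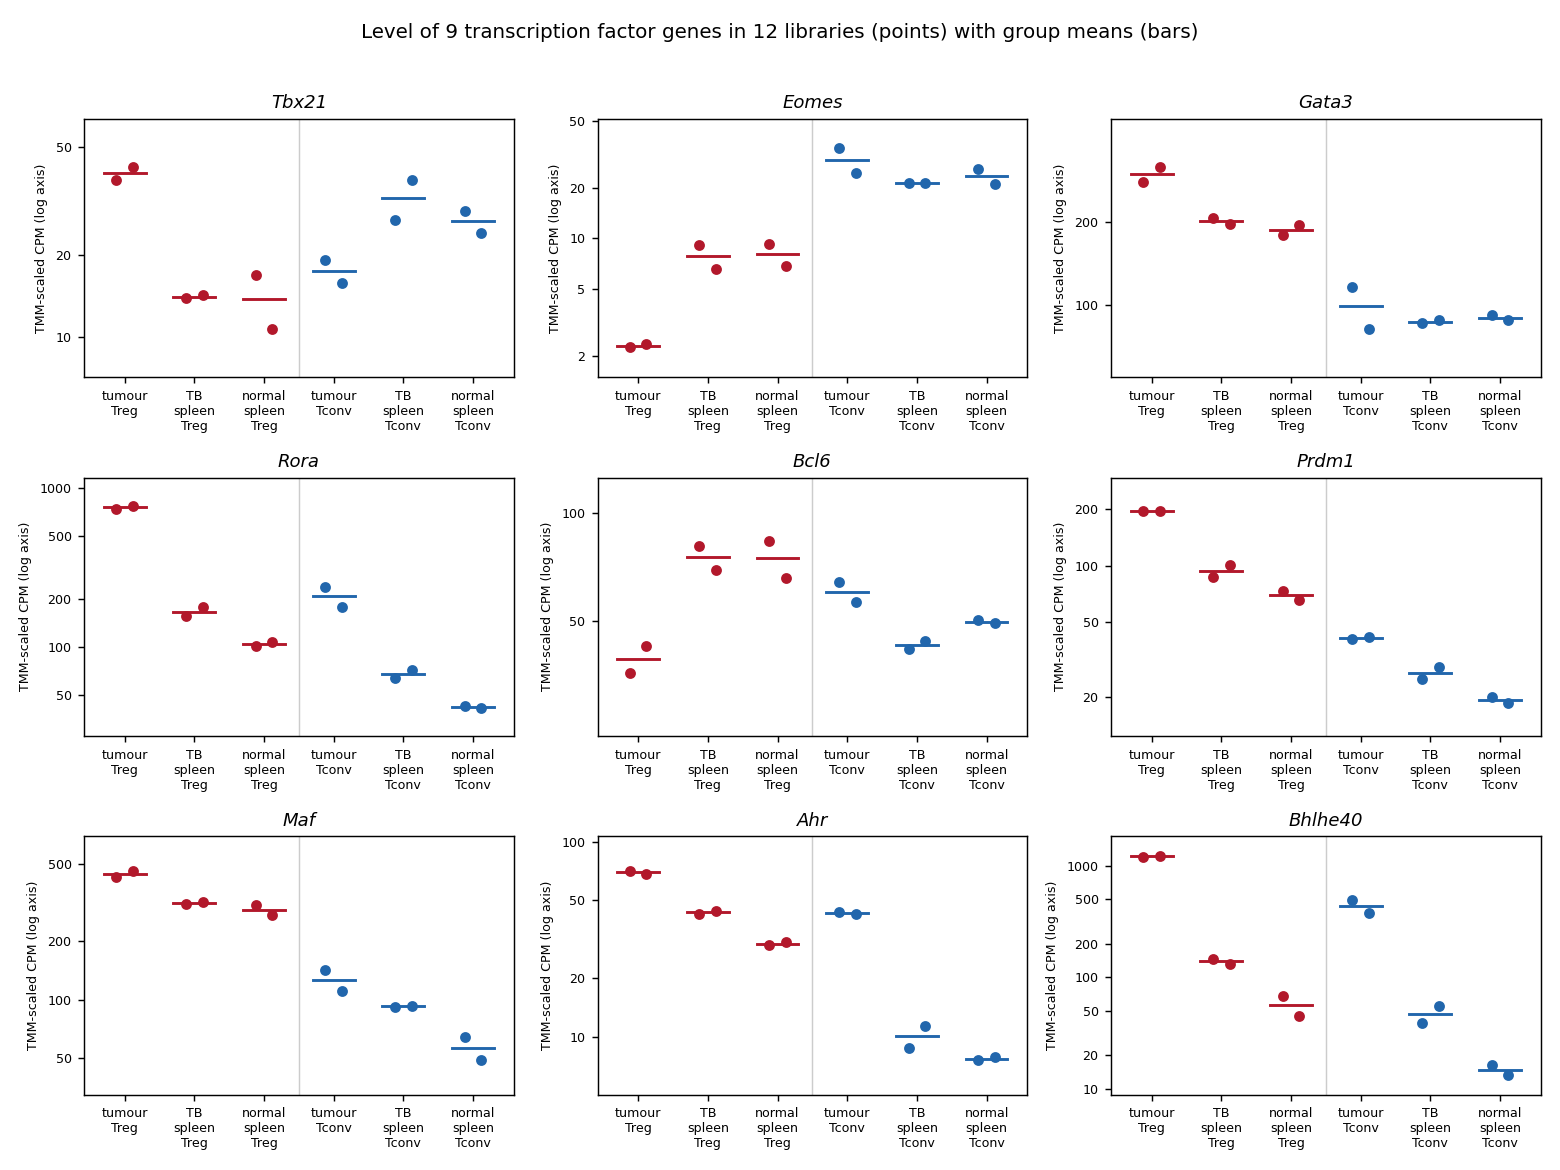
CPM of each of the 9 genes (log axis, own range for each gene) in the 6 groups, with Treg groups in red and Tconv groups in blue; points are libraries and bars are group means. Bhlhe40 reaches 1199.7 and 1227 CPM in tumour Treg, and Eomes falls to 2.26 and 2.36 CPM there.

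In Treg, tumour and TB spleen differed in every member: 7 rose and 2 fell. Among all tested genes 61.4% were called in this comparison, 32.8% higher and 28.7% lower. The median log2 fold change was 0.68 over the 9 members and 0.02 over all tested genes, and the median size was 1.06 against 0.46. In Tconv 6 members rose, 1 fell and 2 were not called, where 49.1% of all tested genes were called, 26.4% higher and 22.8% lower. The median there was 0.49 over the members and 0.00 over all tested genes, and the median size was 0.62 against 0.35. Whether the site change differed between the cell types was tested as an interaction, the Treg change minus the Tconv change. It was called for 6 of 9 members, 3 in each direction, where 24.7% of all tested genes were called, 11.7% higher and 13.1% lower.

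Tbx21 (chr11:97098071-97115331, minus strand, GRCm38), the Th1 factor, moved in opposite directions in the 2 cell types. It had 37.8 and 42.2 CPM in tumour Treg and 19.2 and 15.8 CPM in tumour Tconv. In the spleen of TB mice it had 13.9 and 14.2 CPM in Treg and 26.9 and 37.8 CPM in Tconv, and in normal spleen 16.9 and 10.7 CPM in Treg and 29.1 and 24.1 CPM in Tconv. Tumour Treg had the highest mean, though its lower library was close to the higher TB spleen Tconv library, whereas 3 of the 4 spleen Treg libraries lay below every Tconv library. Spleen Tconv of TB and normal mice overlapped, as did spleen Treg of TB and normal mice. Against TB spleen, Tbx21 rose by 1.51 ± 0.20 in tumour Treg (adjusted p = 4.03e-05) and fell by 0.89 ± 0.20 in tumour Tconv (adjusted p = 0.00275). The interaction was 2.41 ± 0.28 (adjusted p = 0.000108). NK cells also express Tbx21 and Eomes. The sum of 5 NK cell markers was 0.304 to 1.00 CPM in tumour Treg and 3.33 to 6.76 CPM in tumour Tconv, against 6.60 to 6.70 CPM in TB spleen Treg and 43.3 to 75.0 CPM in TB spleen Tconv, where library 2 held the higher sum and the higher Tbx21. Library 2 also held the higher sum in both tumour groups, with the higher Tbx21 in Treg and the lower Tbx21 in Tconv. Eomes had 21.3 and 21.2 CPM in TB spleen Tconv. Klra8 and Klra4 were at 0 in all 6 groups, and Ncr1 and Klre1 also in normal spleen Treg, so the sum rests on few genes. Only 2 of the 5 markers could be tested, of which 1 fell in the tumour in each cell type. The part of NK cells in the Tconv difference was not tested.

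Eomes (chr9:118478212-118486132, plus strand), known for cytotoxic and memory programmes, was the member that fell furthest. It had 2.26 and 2.36 CPM in tumour Treg, from 52 and 54 counts, and 34.2 and 24.3 CPM in tumour Tconv. In the spleen of TB mice it had 9.20 and 6.60 CPM in Treg and 21.3 and 21.2 CPM in Tconv. In normal spleen it had 9.24 and 6.90 CPM in Treg and 25.9 and 21.1 CPM in Tconv. Every Treg library lay below every Tconv library; the 3 Tconv groups overlapped with their neighbours, and spleen Treg of TB and normal mice overlapped. Against TB spleen, Eomes fell by 1.77 ± 0.25 in tumour Treg (adjusted p = 6.37e-05), and 2.28% of all tested genes had a lower log2 fold change. In tumour Tconv the log2 fold change was 0.46 ± 0.19 (adjusted p = 0.0618). That value passed the threshold without tumour Tconv library 2, at 0.68 (adjusted p = 0.00686), with DESeq2 size factors, at 0.50 (0.0474), and with no low-count filter, at 0.48 (0.0306). The interaction was -2.23 ± 0.31 (adjusted p = 0.00039). Within tumour Treg, Tbx21 and Eomes thus went opposite ways: the ratio of Tbx21 to Eomes, each per kilobase, was 28.0 and 29.9 in Treg of the tumour and 0.937 and 1.09 in Tconv of the tumour, and lay between 1.88 and 3.60 in the 8 spleen libraries.

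Gata3 (chr2:9857078-9890034, minus strand), the Th2 factor, was higher in Treg than in Tconv in all groups. It had 281 and 320 CPM in tumour Treg and 115 and 81.2 CPM in tumour Tconv. In the spleen of TB mice it had 208 and 198 CPM in Treg and 85.3 and 87.7 CPM in Tconv, and in normal spleen 179.9 and 196 CPM in Treg and 91.6 and 87.5 CPM in Tconv. The 3 Treg groups did not overlap with each other, and the 3 Tconv groups did. Against TB spleen, Gata3 rose by 0.57 ± 0.12 in tumour Treg (adjusted p = 0.00162). In tumour Tconv the log2 fold change was 0.18 ± 0.13 (adjusted p = 0.262) and hung on single libraries: it was -0.08 without tumour Tconv library 1 and 0.41 without library 2 (adjusted p = 0.00337). The interaction was 0.38 ± 0.18 (adjusted p = 0.137), and 0.63 without tumour Tconv library 1 (adjusted p = 0.00203).

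Rora (chr9:68653786-69388246, plus strand), the retinoid-related receptor, had 740.1 and 775 CPM in tumour Treg and 238 and 180.2 CPM in tumour Tconv. The values in TB spleen were 157 and 179 CPM in Treg and 64.6 and 72.7 CPM in Tconv. In normal spleen it had 103 and 108 CPM in Treg and 42.7 and 41.9 CPM in Tconv. No neighbouring groups overlapped in the order of means, and the tumour group was highest in each cell type. Against TB spleen, Rora rose by 2.17 ± 0.12 in tumour Treg (adjusted p = 2.56e-08) and by 1.61 ± 0.12 in tumour Tconv (adjusted p = 4.92e-07). The interaction was 0.57 ± 0.16 (adjusted p = 0.0217). It lost its call without TB spleen Treg library 1 (0.48, adjusted p = 0.0940) and without TB spleen Tconv library 2 (0.48, adjusted p = 0.0954). Without tumour Tconv library 2 it was 0.37.

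Bcl6 (chr16:23965052-23988852, minus strand) and Prdm1 (chr10:44437177-44528501, minus strand) repress each other in helper cells. Windows of 250 bases upstream of their annotated starts, and of that of Rora, are shown because they held matches to the motifs below. They are RefSeq sequences of GRCm38.p6, which held windows for 6 of the 9 members, written 5′ to 3′ on the gene's strand, with matches to 4 short motifs in capitals: TGANTCA of AP-1, TTCNNNGAA of STAT factors, GCGTG of the AHR complex and CACGTG, the E-box bound by BHLHE40.
Prdm1, chr10:44458749-44458998, minus strand: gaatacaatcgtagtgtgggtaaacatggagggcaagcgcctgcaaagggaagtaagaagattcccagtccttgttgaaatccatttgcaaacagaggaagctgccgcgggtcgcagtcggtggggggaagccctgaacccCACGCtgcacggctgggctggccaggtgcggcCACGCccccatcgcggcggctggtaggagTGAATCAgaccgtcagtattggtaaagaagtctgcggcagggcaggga
Bcl6, first start, chr16:23988853-23989102, minus strand: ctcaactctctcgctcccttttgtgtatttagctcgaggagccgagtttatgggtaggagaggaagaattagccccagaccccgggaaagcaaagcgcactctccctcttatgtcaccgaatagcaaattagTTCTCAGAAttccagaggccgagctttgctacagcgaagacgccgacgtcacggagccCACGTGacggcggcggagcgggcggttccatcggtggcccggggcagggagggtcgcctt
Bcl6, second start, chr16:23981284-23981533, minus strand: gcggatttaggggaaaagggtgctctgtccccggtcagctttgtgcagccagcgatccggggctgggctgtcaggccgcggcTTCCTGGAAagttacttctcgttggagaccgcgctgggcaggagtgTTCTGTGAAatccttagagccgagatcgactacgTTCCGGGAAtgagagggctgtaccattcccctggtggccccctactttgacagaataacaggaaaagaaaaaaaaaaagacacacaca
Rora, chr9:68653536-68653785, plus strand: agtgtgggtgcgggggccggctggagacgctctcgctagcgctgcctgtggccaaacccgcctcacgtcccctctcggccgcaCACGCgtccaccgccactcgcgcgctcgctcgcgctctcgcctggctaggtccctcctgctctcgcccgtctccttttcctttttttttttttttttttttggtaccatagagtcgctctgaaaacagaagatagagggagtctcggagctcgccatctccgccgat
Both strands were searched and no matches overlapped. The Prdm1 window held 1 TGANTCA and 2 GCGTG, read on the opposite strand as CACGC. It lies inside the Prdm1 gene span given above, and the second Bcl6 window lies inside that of Bcl6. The first Bcl6 window held 1 TTCNNNGAA and 1 CACGTG, the second 3 TTCNNNGAA, and the Rora window 1 GCGTG. The windows of Tbx21, Gata3 and Eomes held no match and are not shown. Motifs of T-box, GATA, ROR and Maf factors were searched as well and had no match in any member's window. Among 32851 mouse windows of this length, 6.75% held TGANTCA, 7.02% TTCNNNGAA, 28.2% GCGTG and 6.02% CACGTG. A match describes the letters only.

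Bcl6 had 35.9 and 42.6 CPM in tumour Treg and 64.4 and 56.7 CPM in tumour Tconv. The values in TB spleen were 81.3 and 69.7 CPM in Treg and 41.9 and 44.0 CPM in Tconv, and in normal spleen 84.0 and 65.9 CPM in Treg and 50.3 and 49.4 CPM in Tconv. The order of the cell types was thus reversed in the tumour, where both Treg libraries lay below both Tconv libraries. Spleen Treg of TB and normal mice overlapped, as did tumour Treg and TB spleen Tconv. Against TB spleen, Bcl6 fell by 0.94 ± 0.12 in tumour Treg (adjusted p = 3.45e-05) and rose by 0.49 ± 0.12 in tumour Tconv (adjusted p = 0.00553). The interaction was -1.44 ± 0.17 (adjusted p = 0.000131).

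Prdm1 had 195 and 197 CPM in tumour Treg and 40.9 and 41.7 CPM in tumour Tconv. In TB spleen it had 87.2 and 102 CPM in Treg and 25.0 and 28.9 CPM in Tconv, and in normal spleen 73.5 and 66.1 CPM in Treg and 20.2 and 18.7 CPM in Tconv. All 6 groups were separate, with every Treg library above every Tconv library. Against TB spleen, Prdm1 rose by 1.06 ± 0.09 in tumour Treg (adjusted p = 8.98e-07) and by 0.62 ± 0.10 in tumour Tconv (adjusted p = 0.000245). The interaction was 0.44 ± 0.13 (adjusted p = 0.0276); leaving out any of 4 libraries ended the call, with an adjusted p of 0.0545 without tumour Treg library 1, 0.0579 without tumour Tconv library 1, 0.113 without TB spleen Treg library 1 and 0.137 without TB spleen Tconv library 2. The ratio of Bcl6 to Prdm1, each per kilobase, was 0.153 and 0.180 in Treg of the tumour and 1.31 and 1.13 in Tconv of the tumour. It was 0.776 and 0.572 in TB spleen Treg and 1.40 and 1.27 in TB spleen Tconv, and 0.952 and 0.830 in normal spleen Treg and 2.08 and 2.20 in normal spleen Tconv. The ratio was below 1 in every Treg library and above 1 in every Tconv library, and lowest in tumour Treg. Where it crosses 1 depends on the exon lengths used, 6700 bases for Bcl6 and 5579 for Prdm1. The order of the libraries does not depend on these lengths.

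**Figure D2:**
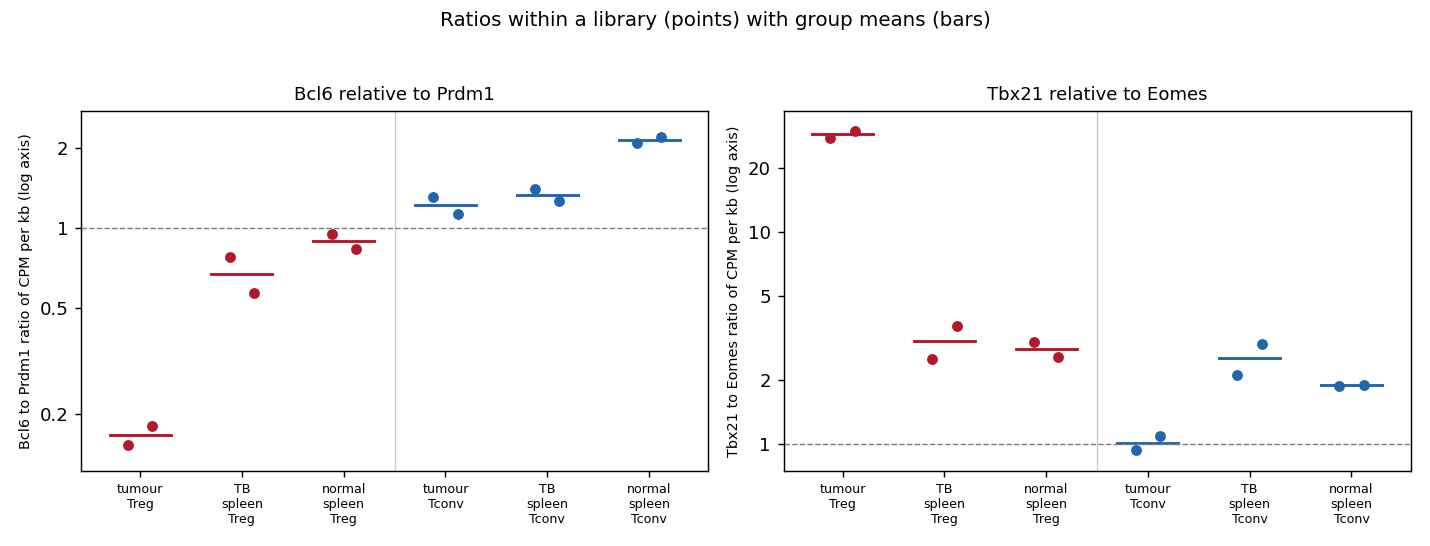
Ratio of Bcl6 to Prdm1 (left) and of Tbx21 to Eomes (right), each as CPM per kilobase of exon on a log axis, in the 6 groups; points are libraries, bars are group means and the dashed line marks equal levels. Tumour Treg stand apart in each panel, at 0.153 and 0.180 on the left and 28.0 and 29.9 on the right.

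Maf (chr8:115682942-115707794, minus strand), a driver of IL-10 in several T cell types, had 429 and 463 CPM in tumour Treg and 143 and 111 CPM in tumour Tconv. In TB spleen it had 312 and 318 CPM in Treg and 92.4 and 92.7 CPM in Tconv, and in normal spleen 309 and 275 CPM in Treg and 64.5 and 48.8 CPM in Tconv. The 6 groups were separate and each cell type had its highest level in the tumour. Against TB spleen, Maf rose by 0.50 ± 0.12 in tumour Treg (adjusted p = 0.00386) and by 0.45 ± 0.13 in tumour Tconv (adjusted p = 0.0118). The rise in Tconv did not pass the threshold when tumour Tconv library 1 was left out (0.27, adjusted p = 0.0950), nor without either TB spleen Tconv library (adjusted p = 0.0572 without library 1 and 0.0587 without library 2). The interaction was 0.05 ± 0.18 (adjusted p = 0.889).

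Ahr (chr12:35497974-35535038, minus strand), a sensor of dietary, microbial and tryptophan-derived ligands, had 71.0 and 68.4 CPM in tumour Treg and 43.5 and 42.5 CPM in tumour Tconv. In TB spleen it had 42.7 and 44.2 CPM in Treg and 8.70 and 11.4 CPM in Tconv, and in normal spleen 29.5 and 30.4 CPM in Treg and 7.54 and 7.82 CPM in Tconv. Tumour Tconv thus overlapped with TB spleen Treg and lay far above spleen Tconv. Against TB spleen, Ahr rose by 0.68 ± 0.09 in tumour Treg (adjusted p = 4.49e-05) and by 2.09 ± 0.11 in tumour Tconv (adjusted p = 2.03e-08). The interaction was -1.41 ± 0.14 (adjusted p = 3.33e-05), so the rise was larger in Tconv.

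Bhlhe40 (chr6:108660629-108666925, plus strand), an activation-induced factor known to restrain IL-10 in Th1 cells, had the largest site change of the 9. It had 1199.7 and 1227 CPM in tumour Treg and 497 and 375 CPM in tumour Tconv. In TB spleen it had 147 and 132 CPM in Treg and 38.9 and 55.0 CPM in Tconv, and in normal spleen 67.7 and 44.6 CPM in Treg and 16.2 and 13.2 CPM in Tconv. Normal spleen Treg overlapped with TB spleen Tconv, and no other neighbours did. Against TB spleen, Bhlhe40 rose by 3.12 ± 0.20 in tumour Treg (adjusted p = 1.19e-07) and by 3.21 ± 0.21 in tumour Tconv (adjusted p = 1.80e-07). Of all tested genes, 91.6% in Treg and 90.7% in Tconv had a lower log2 fold change. The interaction was -0.09 ± 0.27 (adjusted p = 0.857).

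**Figure D3:**
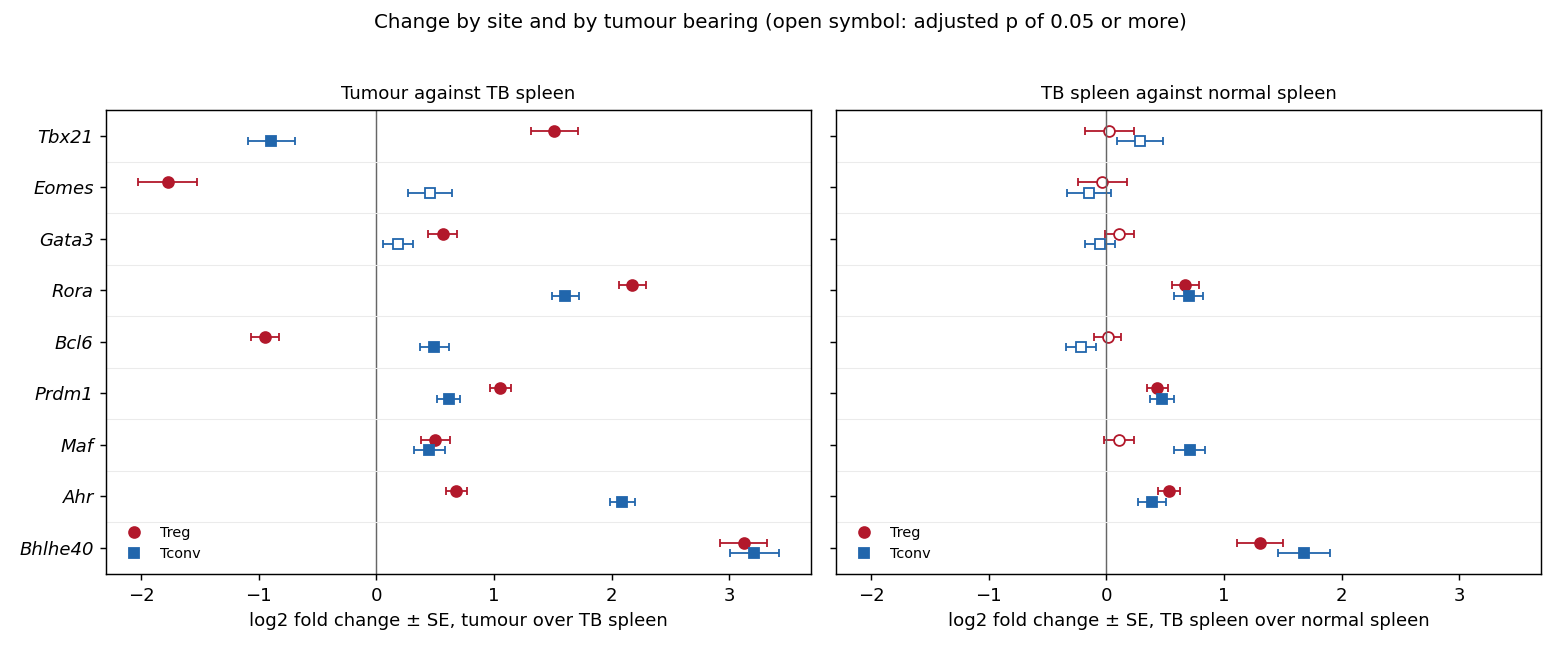
Log2 fold change ± SE of the 9 genes for tumour over TB spleen (left) and TB spleen over normal spleen (right), in Treg (red circles) and Tconv (blue squares); open symbols mark values that were not called. On the left Tbx21, Eomes and Bcl6 have opposite signs in the 2 cell types, and on the right the called values are all above 0.

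The spleen comparison addressed whether T cells outside the tumour differ with tumour bearing. In Treg, Rora, Prdm1, Ahr and Bhlhe40 rose in TB spleen against normal spleen, 4 of 9 members where 15.3% of all tested genes were called, 6.8% higher and 8.5% lower. In Tconv the same 4 and Maf rose, 5 of 9 members where 17.2% were called, 9.74% higher and 7.49% lower. No member fell in either cell type. The macrophage marker sum was 13.9 to 21.8 CPM in TB spleen Treg, against 8.91 to 10.5 CPM in normal spleen Treg, and 7.72 to 9.12 CPM in TB spleen Tconv, against 8.15 to 9.44 CPM in normal spleen Tconv. The sum of 4 neutrophil markers was 1.92 to 7.53 CPM in TB spleen Treg, against 0.335 to 0.623 CPM in normal spleen Treg, and that of the NK cell markers 43.3 to 75.0 CPM in TB spleen Tconv, against 19.8 to 21.8 CPM in normal spleen Tconv. The part of these cells in the spleen differences was not tested. This comparison and that of tumour with TB spleen share the TB spleen libraries, so their values are given side by side only. Bhlhe40 rose by 1.31 ± 0.20 in TB spleen Treg (adjusted p = 0.00126) and by 1.68 ± 0.22 in TB spleen Tconv (adjusted p = 0.000477), against 3.12 and 3.21 for tumour over TB spleen. Rora rose by 0.67 ± 0.11 in Treg (adjusted p = 0.00261) and by 0.70 ± 0.12 in Tconv (adjusted p = 0.00237). The means of these 2 genes were therefore lowest in normal spleen, intermediate in TB spleen and highest in the tumour in each cell type. The means of Prdm1, Maf and Ahr had the same order, though Maf was not called between the spleens in Treg. Ahr rose by 0.54 ± 0.09 in Treg (adjusted p = 0.00323) and by 0.39 ± 0.12 in Tconv (adjusted p = 0.0433). The Tconv call of Ahr was the least firm: it was lost without any 1 of 7 libraries, at 0.18 without TB spleen Tconv library 2 (adjusted p = 0.435), and with limma-voom (adjusted p = 0.107) and DESeq2 (adjusted p = 0.0578).

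Prdm1 rose by 0.44 ± 0.09 in TB spleen Treg (adjusted p = 0.00711) and by 0.47 ± 0.10 in TB spleen Tconv (adjusted p = 0.00887) against normal spleen. The Treg call was lost without TB spleen Treg library 2 (adjusted p = 0.0910) or normal spleen Treg library 2 (0.103), and the Tconv call without TB spleen Tconv library 2 (0.0798) or normal spleen Tconv library 2 (0.0958). Maf rose by 0.71 ± 0.13 in TB spleen Tconv (adjusted p = 0.00379), a call lost without normal spleen Tconv library 2 (0.52, adjusted p = 0.0539). In TB spleen Treg the log2 fold change of Maf was 0.11 ± 0.12 (adjusted p = 0.608). The difference between the cell types, Treg change minus Tconv change, was -0.60 ± 0.18 for Maf (adjusted p = 0.266). No member was called in this interaction by edgeR, DESeq2 or limma-voom, where edgeR called 0.851% of all tested genes, 0.222% higher and 0.629% lower. Before adjustment each of these tools counted 1 member past 0.05, and for edgeR it was Maf. Gata3, Tbx21, Eomes and Bcl6 were not called in either cell type, with log2 fold changes from -0.21 to 0.29.

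Treg and Tconv of one site differed in all 9 members at each of the 3 sites. In the tumour 7 were higher and 2 lower in Treg, where 53.9% of all tested genes were called, 27.2% higher and 26.7% lower. In TB spleen the split was again 7 and 2, where 40.3% of genes were called, 21% higher and 19.4% lower. In normal spleen it was 7 and 2, where 40.6% were called, 21.8% higher and 18.7% lower. The pair of lower members was Bcl6 and Eomes in the tumour and Tbx21 and Eomes in each spleen. Tbx21 was higher in tumour Treg than in tumour Tconv by 1.20 ± 0.20 (adjusted p = 0.000232). In TB spleen its log2 fold change was -1.21 ± 0.20 (adjusted p = 0.000377), and in normal spleen its value was -0.95 ± 0.20 (adjusted p = 0.0024). Bcl6 showed the converse, with -0.62 ± 0.12 in the tumour (adjusted p = 0.000906), 0.81 ± 0.12 in TB spleen (adjusted p = 0.000171) and 0.59 ± 0.12 in normal spleen (adjusted p = 0.00184). Eomes was lower in Treg at every site, by a log2 fold change of -3.66 ± 0.23 in the tumour (adjusted p = 5.71e-08), -1.43 ± 0.20 in TB spleen (adjusted p = 0.000108) and -1.54 ± 0.20 in normal spleen (adjusted p = 5.73e-05).

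The other 6 members were higher in Treg at every site. Prdm1 differed by 2.25 ± 0.09 in the tumour (adjusted p = 1.37e-09), 1.81 ± 0.09 in TB spleen (adjusted p = 2.07e-08) and 1.84 ± 0.10 in normal spleen (adjusted p = 2.12e-08). For Ahr the difference was 0.70 ± 0.09 in the tumour (adjusted p = 3.48e-05), 2.11 ± 0.10 in TB spleen (adjusted p = 1.35e-08) and 1.96 ± 0.11 in normal spleen (adjusted p = 3.07e-08). Ahr was thus the one of these 6 whose difference between the cell types was narrower in the tumour than in TB spleen by the interaction. Gata3, Rora, Maf and Bhlhe40 differed by 1.07 to 2.37 across the 3 sites. None of these calls was lost when any 1 library was left out.

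**Figure D4:**
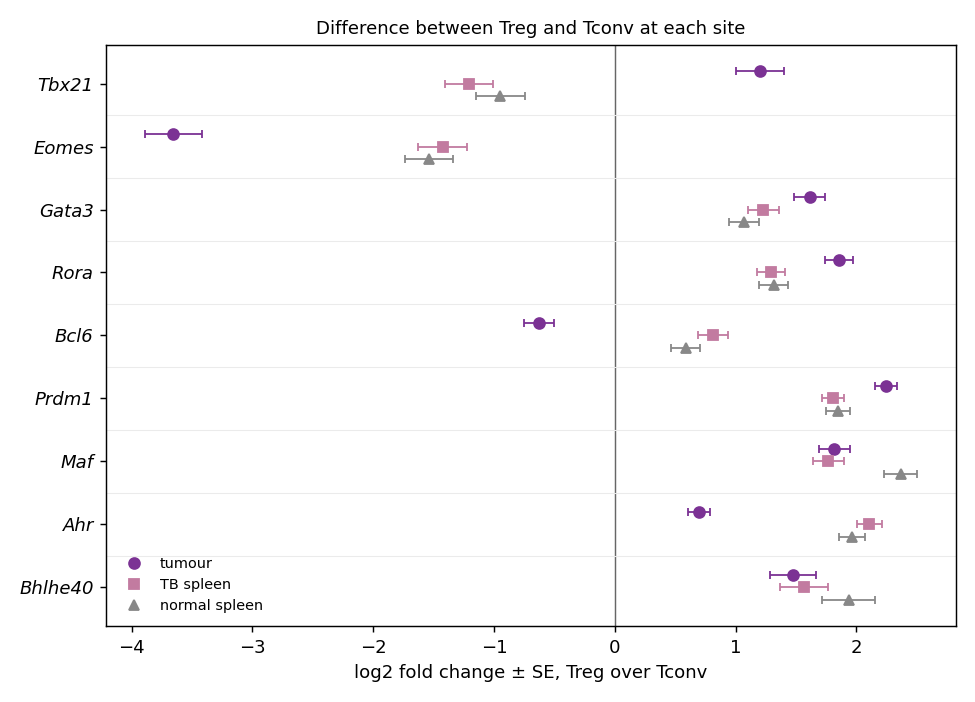
Log2 fold change ± SE of Treg over Tconv for the 9 genes in the tumour (circles), TB spleen (squares) and normal spleen (triangles); all 27 values were called. Tbx21 is above 0 in the tumour only and Bcl6 is below 0 in the tumour only.

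Genes of the programmes that the members are known to direct were counted in the tumour comparisons, where 61.4% of all tested genes were called in Treg and 49.1% in Tconv. Of 15 Th1 genes, the programme of T-bet, 13 rose and 1 fell in tumour Treg, and 7 rose and 1 fell in tumour Tconv. Ccl5, a chemokine, had 164 and 185 CPM in tumour Treg, against 18.1 and 20.1 CPM in TB spleen Treg, and rose by 3.20 ± 0.20 (adjusted p = 8.85e-08). Ifng, the Th1 cytokine, stayed low: it had 3.08 and 3.58 CPM in tumour Treg, against 1.72 and 0.973 CPM in TB spleen Treg, and rose by 1.30 ± 0.28 (adjusted p = 0.00161). In tumour Tconv, where Tbx21 fell, Ifng had 11.6 and 11.4 CPM, against 8.02 and 5.83 CPM in TB spleen Tconv. That rise of 0.73 ± 0.23 (adjusted p = 0.0195) was lost without TB spleen Tconv library 2 (0.51, adjusted p = 0.174).

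Of 15 Th2 genes, the programme of GATA3, 10 could be tested. Of these 8 rose and 1 fell in tumour Treg, and 6 rose and none fell in tumour Tconv. Some of them, Areg, Il1rl1 and Ccr8 included, are also on the effector Treg list below. The counts and medians of both lists are therefore not separate. Areg, a growth factor of tissue repair, had 322 and 412 CPM in tumour Treg, against 3.60 and 4.19 CPM in TB spleen Treg, and rose by 6.56 ± 0.15 (adjusted p = 3.16e-11). Il1rl1, the receptor for IL-33, had 60.1 and 98.6 CPM in tumour Tconv, against 3.70 and 1.39 CPM in TB spleen Tconv, and rose by 5.01 ± 0.39 (adjusted p = 8.37e-07). The Th2 cytokines had few counts. Il5 had 2 and 3 counts in tumour Treg and 1 and 2 in TB spleen Treg, and Il13 had 1 and 1 counts against 0 and 0. In tumour Tconv Il5 had 16 and 1 counts, against 0 and 1 in TB spleen Tconv, and Il13 had 12 and 7 counts, against 1 and 0. Il4 had 0 counts in both tumour Treg libraries, against 6 and 4 in TB spleen Treg (adjusted p = 0.0645; 0.0188 with DESeq2), and 29 and 4 counts in tumour Tconv, against 23 and 47 in TB spleen Tconv (adjusted p = 0.323; 0.00455 without tumour Tconv library 1, at a log2 fold change of -3.15).

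Of 13 Th17 genes 12 could be tested; 7 rose and none fell in tumour Treg, and 11 rose and none fell in tumour Tconv. Il17a had 84 and 133 counts in tumour Tconv and none in TB spleen Tconv, and was at least 75.4-fold higher (adjusted p = 1.21e-05). In tumour Treg Il17a had 23 and 15 counts, against 1 and 0 in TB spleen Treg, and rose by 4.97 ± 0.86 (adjusted p = 0.00057). Il22 had 24 and 31 counts in tumour Tconv and none in TB spleen Tconv, at least 19.1-fold higher (adjusted p = 0.00139).

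Of 16 Tfh genes, the programme of BCL6, 13 fell and 2 rose in tumour Treg, and 8 fell and 2 rose in tumour Tconv. Cxcr5, the follicle-homing receptor, had 31.2 and 48.5 CPM in tumour Treg, against 253 and 225 CPM in TB spleen Treg, and fell by 2.58 ± 0.24 (adjusted p = 2.21e-06). Il21, the Tfh cytokine, had 0 counts in tumour Treg, against 38 and 25 in TB spleen Treg, and was at least 20.1-fold lower (adjusted p = 0.00125). In tumour Tconv, where Bcl6 rose, Il21 had 3.44 and 2.81 CPM, against 29.0 and 22.1 CPM in TB spleen Tconv, and fell by 3.03 ± 0.42 (adjusted p = 0.00013). Icos, an activation receptor, was one of the 2 that rose in Tconv: it had 743 and 706 CPM in tumour Tconv, against 160.1 and 164 CPM in TB spleen Tconv, and rose by 2.16 ± 0.07 (adjusted p = 3.27e-10).

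Effector Treg genes, the programme linked to Prdm1 and Maf, numbered 18. Of these 15 rose and none fell in tumour Treg, and 13 rose and 1 fell in tumour Tconv. Areg, Il1rl1 and Ccr8 of the Th2 list were counted again here. Il10 had 93.4 and 92.7 CPM in tumour Treg, against 11.8 and 9.82 CPM in TB spleen Treg, and rose by 3.10 ± 0.24 (adjusted p = 4.67e-07). Gzmb, a granule protease, had 765 and 833 CPM in tumour Treg, against 52.2 and 84.5 CPM in TB spleen Treg, and rose by 3.55 ± 0.26 (adjusted p = 3.13e-07). In tumour Tconv Il10 had 10.2 and 4.40 CPM, against 2.34 and 1.71 CPM in TB spleen Tconv, and rose by 1.83 ± 0.33 (adjusted p = 0.000725).

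Of 10 partners and targets of Ahr 7 could be tested; 4 rose and 1 fell in tumour Treg, and 3 rose and 2 fell in tumour Tconv. The 1 that fell in Treg was Cyp1a1, with 1 and 0 counts in tumour Treg, against 6 and 3 in TB spleen Treg (adjusted p = 0.0482), a call lost with DESeq2 (adjusted p = 0.161), with no low-count filter (0.079), under the replicate block (0.0773) and without any 1 of 10 libraries (0.233 without tumour Treg library 2). Tiparp, a target of the receptor that represses it in turn, had 103 and 119 CPM in tumour Tconv, against 47.0 and 36.3 CPM in TB spleen Tconv, and rose by 1.42 ± 0.11 (adjusted p = 7.51e-07). In tumour Treg Tiparp had 87.6 and 94.7 CPM, against 35.8 and 35.8 CPM in TB spleen Treg, and rose by 1.35 ± 0.11 (adjusted p = 7.22e-07). The classic target Cyp1a1 had 0 counts in tumour Tconv, against 11 and 15 in TB spleen Tconv, and was at least 8.31-fold lower (adjusted p = 0.00122). Cyp1b1, a further target, had 13 and 21 counts in tumour Treg and none in TB spleen Treg, at least 11.9-fold higher (adjusted p = 0.00765), a call lost with DESeq2 (adjusted p = 0.28). In tumour Tconv Cyp1b1 had 2 and 20 counts and none in TB spleen Tconv (adjusted p = 0.0226), a call lost with DESeq2 (0.382) and without tumour Tconv library 2 (0.174), TB spleen Tconv library 1 (0.0744) or TB spleen Tconv library 2 (0.0893). Ahr and its known targets thus did not all move one way.

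The median log2 fold change of these lists, tumour over TB spleen in Treg, was 1.30 for Th1, 1.93 for Th2, 0.64 for Th17, -0.93 for Tfh, 2.06 for effector Treg and 0.18 for Ahr genes, against 0.02 over all tested genes. In Tconv it was 0.31 for Th1, 1.48 for Th2, 1.41 for Th17, -0.26 for Tfh, 1.59 for effector Treg and 0.01 for Ahr genes, against 0.00 over all tested genes. Fewer list genes were called between TB and normal spleen, as were fewer of all tested genes, 15.3% in Treg and 17.2% in Tconv. In Treg 5 Th1, 2 Th2, 3 Th17, 2 Tfh, 7 effector Treg and 1 of the Ahr genes were higher in TB spleen, and 1 Th1, 2 Tfh and 1 of the Ahr genes were lower. In Tconv 4 Th1, 2 Th2, 5 Th17, 6 Tfh and 10 effector Treg genes were higher in TB spleen, and 1 Th1, 2 Tfh and 2 of the Ahr genes were lower.

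**Figure D5:**
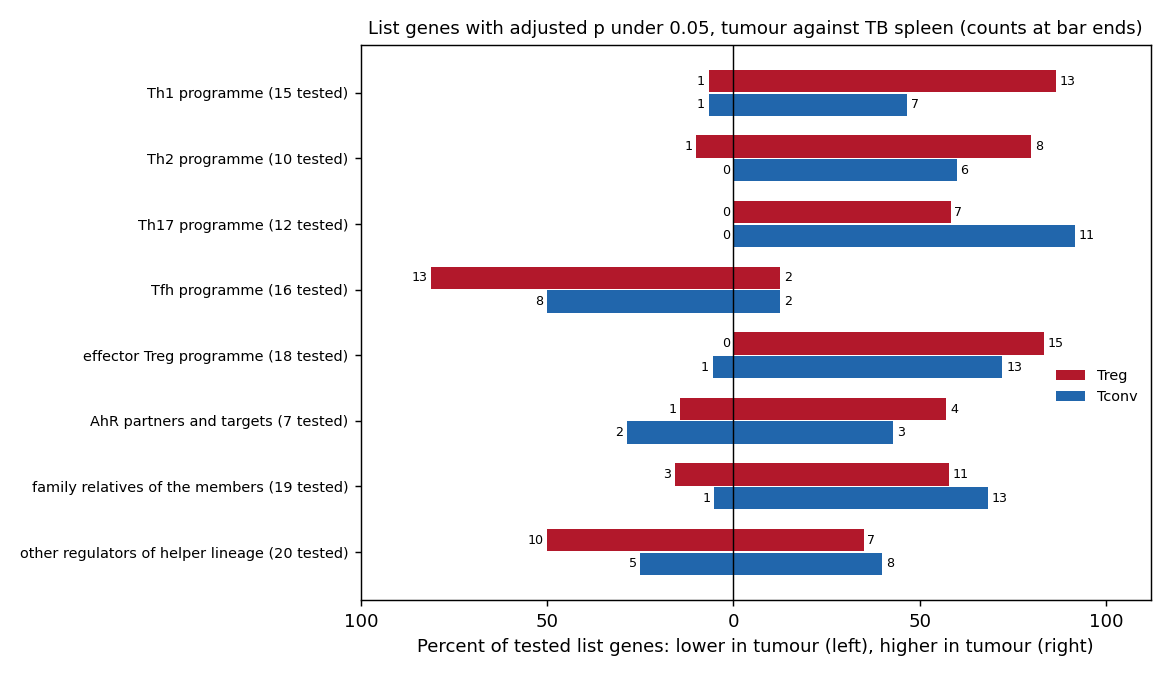
Share of the tested genes of each list that were called lower (left of 0) or higher (right of 0) in the tumour than in TB spleen, in Treg (red) and Tconv (blue), with counts at the bar ends. The Tfh list is the one with most genes to the left, 13 in Treg and 8 in Tconv.

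The genes whose levels followed each member most closely were named by Pearson r of log2 CPM over the 12 libraries, as a description, among 8359 genes of sufficient level. The libraries form 6 groups that differ in many genes at once, and so r is high for many pairs. Prdm1 was most like Abi2 (r = 0.996) and Ttc39c (0.993), Maf most like Kctd17 (0.993) and Zdhhc2 (0.991), and Gata3 most like Nucb1 (0.989) and Ncmap (0.988). Rora was most like Rab43 (0.992) and Smox (0.990), Bhlhe40 most like Plk3 (0.992) and Pmepa1 (0.990), and Ahr most like Trib1 (0.991) and Psd (0.989). Eomes was most like Gtf2i (0.990) and Maml2 (0.987). Tbx21 and Bcl6 had the least close partners, with Apobr (0.927) and Id2 (0.906) for Tbx21 and Cdk19 (0.928) and Cyth3 (0.926) for Bcl6. Among the members themselves, Rora and Bhlhe40 (r = 0.967) and Prdm1 and Maf (r = 0.966) were the closest pairs, and the most opposed were Gata3 and Eomes (r = -0.933), Prdm1 and Eomes (-0.915), Maf and Eomes (-0.857) and Tbx21 and Bcl6 (-0.849).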

How the data were processed

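The deposited table holds raw counts per gene, 1 column for each of 12 libraries, as whole numbers that the authors did not scale. Per the labels' protocols the libraries are stranded (TruSeq) and were sequenced on a NextSeq500. Per the submitters' processing notes STAR, featureCounts and the mm10 build were used; versions, and the strand setting of the counting, are not given in the sources used here. Opposite-strand genes overlap 0% to 5.34% of the members' exons (Maf most), and a same-strand gene 1.94% of those of Gata3; other named genes were not checked for overlaps.

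Groups and replicate numbers were taken from the sample titles. Counts were analysed with edgeR 4.0.16 in R 4.3.3: genes kept by filterByExpr (13509 of 24062), TMM factors of 0.942 to 1.07, 1 quasi-likelihood fit of 6 group means with 6 residual degrees of freedom, two-sided F tests and Benjamini-Hochberg adjustment over all tested genes, with a threshold of 0.05. The SE is the log2 fold change divided by the square root of F. The procedure was tested on simulated data. Replicates differed by more than counting noise (chi-square per gene 3.56 to 17.0). A fold against a group at 0 counts takes 3 counts over that group as its floor and covers counting error only. Exon lengths and positions come from GENCODE vM21 of GRCm38, the same assembly as mm10, and promoter windows from RefSeq. Trac and Ly6g were not matched; Jchain and Adgre1 were matched as Igj and Emr1. The results were recomputed with DESeq2 1.42.0, with TMM replaced by that tool's size factors or by library size alone, with limma-voom (limma 3.58.1), with other filters, with fits of only the groups compared, with a replicate block and without each library in turn. All 9 members were named in every comparison, with up to 4 called genes of largest change per list, the main cytokines, and for each member the 2 genes of highest r. The members and lists were chosen with earlier results of these data known. Some genes of the lists are counted but not reported here by name.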

Additional observations from a re-analysis of the deposited data

Results flagged for a closer look

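Of the 9 members, 6 had a site change, tumour against TB spleen, that differed between Treg and Tconv by the interaction test of the edgeR fit, where 24.7% of all tested genes did. In Tbx21 the Treg change exceeded the Tconv change by 2.41 ± 0.28 log2 units, in Rora by 0.57 ± 0.16 and in Prdm1 by 0.44 ± 0.13. The differences were -1.44 ± 0.17 in Bcl6, -2.23 ± 0.31 in Eomes and -1.41 ± 0.14 in Ahr, where the Tconv change was the higher one. Tbx21, Bcl6, Eomes and Ahr kept their calls under every alternative that was run, and Rora and Prdm1 did not.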

How the results depend on the processing

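The cause of the changes given here was not tested. For the 9 members, every call of Treg against Tconv, and every call of tumour against TB spleen in Treg, held under all 8 alternatives and without any 1 library. Scaled by library size alone, the all-gene median was -0.14 for tumour over TB spleen in Treg and -0.11 in Tconv; the share of higher calls was then 39.8% in place of 53.3% in Treg and 41.5% in place of 53.7% in Tconv. For TB over normal spleen that share was 66.5% in place of 44.4% in Treg and 78.5% in place of 56.5% in Tconv. It turned the sign of 3 uncalled values: Eomes in TB over normal spleen Treg (0.0335), Gata3 in Tconv (0.0231) and the site interaction of Maf (-4.9e-05). The systemic interaction of Rora was 0.000717 with no low-count filter. In fits of only the groups compared, the site interactions of Rora (0.53, adjusted p = 0.0741) and Prdm1 (0.40, adjusted p = 0.0696) lost their calls, as Prdm1 did under library-size scaling (0.39, adjusted p = 0.0562). Such fits called 3670 genes in TB over normal spleen Treg, against 2066, and in the systemic interaction 320 genes and 1 member, Maf (-0.59, adjusted p = 0.0273), against 115 genes and 0 members. That interaction called 211 genes by DESeq2 and 184 with no filter.

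Leaving out 1 library at a time, the genes called ranged from 512 to 2711 in TB over normal spleen Treg, 751 to 2720 in Tconv, 2161 to 3679 in the site interaction and 42 to 221 in the systemic one. Members called ranged from 2 to 5 in TB over normal spleen Tconv, the lowest without normal spleen Tconv library 2. Uncalled values that changed sign were Gata3 in tumour over TB spleen Tconv (-0.0788 to 0.41), Tbx21 (-0.27 to 0.39), Bcl6 (-0.16 to 0.20) and Eomes (-0.29 to 0.19) in TB over normal spleen Treg, and Eomes in Tconv (-0.28 to 0.00725). Others were the site interactions of Maf (-0.13 to 0.22) and Bhlhe40 (-0.36 to 0.14). In the systemic interaction they were Tbx21 (-0.55 to 0.11), Rora (-0.12 to 0.0624), Prdm1 (-0.15 to 0.0725), Eomes (-0.15 to 0.34) and Ahr (-0.0282 to 0.36).

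Whether replicate numbers pair the libraries could not be decided. The difference between library 1 and library 2 was correlated between groups over all tested genes. The r was -0.039 to 0.148 between groups of TB mice and 0.0889 between the groups of normal mice. Between groups of TB and normal mice, which share no mice, it was -0.129 to 0.062. Numbers were read from the sample titles; for normal spleen the descriptions number the Treg libraries 2 and 3 and the Tconv libraries 1 and 3, so the block there rests on numbers that the descriptions do not share. With the replicate block, tumour over TB spleen Tconv called 8 members, Eomes among them (0.44, adjusted p = 0.0236), and TB over normal spleen Tconv called 4, without Ahr (adjusted p = 0.0651); the other counts of members did not move. Counts as low as 52 and 54 for Eomes in tumour Treg limit the precision of its level there.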

Other observations

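Other regulators were counted where 61.4% of all tested genes were called in Treg and 49.1% in Tconv. Of 20 other regulators of helper lineage, 7 rose and 10 fell in tumour Treg against TB spleen Treg, and 8 rose and 5 fell in Tconv. Id2, an inhibitor of E proteins, had 675 and 673 CPM in tumour Treg, against 82.0 and 81.7 CPM in TB spleen Treg, and rose by 3.04 ± 0.13 (edgeR adjusted p = 3.22e-09). Nfil3, a basic leucine zipper factor, had 253 and 233 CPM in tumour Treg, against 34.8 and 30.0 CPM in TB spleen Treg, and rose by 2.91 ± 0.13 (adjusted p = 7.14e-09). Irf4, an activation-induced partner of BATF, had 186 and 172 CPM in tumour Tconv, against 29.0 and 34.2 CPM in TB spleen Tconv, and rose by 2.50 ± 0.10 (adjusted p = 1.72e-09). Bach2, which restrains effector genes and was chosen after its values were seen, fell by 1.95 ± 0.13 in tumour Treg (adjusted p = 2.11e-07), and its value in Tconv was 0.19 ± 0.12 (adjusted p = 0.22).

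Of 23 family relatives of the members 19 could be tested; 11 rose and 3 fell in tumour Treg, and 13 rose and 1 fell in tumour Tconv. Those with the largest changes were at low levels. Tbx3, a T-box gene, had 1.86 and 4.99 CPM in tumour Tconv and no counts in TB spleen Tconv, and was at least 49.7-fold higher. Bcl6b, a relative of Bcl6, had 5.30 and 10.7 CPM in tumour Tconv, against 0 and 1 counts in TB spleen Tconv. Twist1, from the list of other regulators, had 3.33 and 6.08 CPM in tumour Tconv and no counts in TB spleen Tconv, and was at least 67.1-fold higher. All 3 were higher in tumour Tconv library 2 than in library 1. The fibroblast marker sum was 519 CPM in library 2 and 212 CPM in library 1. The macrophage, dendritic cell and neutrophil marker sums were also higher in library 2, that of macrophages at 462 CPM against 187 CPM. In tumour Treg, where the fibroblast sum was 416 CPM in library 1 and 396 CPM in library 2, Tbx3 had 2.17 and 4.54 CPM. Twist1 had 4.21 and 4.46 CPM there, and Bcl6b 7.51 and 7.08 CPM. The part of other cells in these values was not tested.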
